A study of Homo sapiens with 3 samples.

Results

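The secreted Wnt inhibitor DKK1 and 9 other genes of the Wnt pathway were followed in 5637 cells, an established human bladder cancer line, after siRNA against CDCA3. The genes were DKK1, DKK3, WNT7A, WNT7B, WNT10A, LRP5, LRP6, CTNNB1, TCF7L2 and AXIN2. These 10 genes, of 19225 in the deposited table, were taken by name, each through the transcript with the most reads over all libraries. They were named with earlier results of this same comparison known, in which DKK1 stood out. Their levels and differences are therefore given as a description, with no test. The data are 2 libraries from cells transfected with siRNA against CDCA3 (siCDCA3-1 and siCDCA3-2) and 1 library from cells transfected with a control siRNA (siNC). All were labelled wild type and grown in the same serum-supplemented medium, with a lipid reagent used for transfection. Whether the numbers 1 and 2 mark distinct siRNAs or parallel transfections is not explained in the labels. The study asked which genes lie downstream of CDCA3, a regulator of mitotic entry.

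Wnt ligands are secreted, lipid-modified proteins that bind a Frizzled receptor together with the co-receptor LRP5 or LRP6. Binding halts the destruction complex, in which AXIN and APC hold beta-catenin (the product of CTNNB1) for phosphorylation and breakdown. Spared beta-catenin enters the nucleus and, with TCF/LEF factors such as TCF7L2, switches on target genes, among them AXIN2, which feeds back to restrain the pathway. DKK1 binds LRP5 and LRP6 and keeps ligands from using them, and its gene is itself a known target of beta-catenin in other cells. In the bladder, Wnt ligands take part in exchange between the urothelium and the tissue beneath it.

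The libraries held 40420563 gene-level counts in siCDCA3-1, 62389922 in siCDCA3-2 and 50912733 in siNC. Levels are in RPKM, the authors' count of reads scaled by transcript length and by a library total. The targeted gene CDCA3 stood at 10.4% of its siNC RPKM in siCDCA3-1 and at 25.3% in siCDCA3-2. Of 10 basal and epithelial markers, 9 had a mean RPKM of at least 1, with summed RPKM of 2199 and 1798 in the siCDCA3 libraries and 2622 in siNC. These markers did not move together. Relative to siNC, KRT5 stood at 51.8% in siCDCA3-1 and 47.5% in siCDCA3-2, and KRT17 at 49.0% and 32.1%. In the same order TP63 stood at 39.3% and 77.1%, and KRT14, under a mean RPKM of 1, at 9.51% and 53.1%. The basal markers KRT5, KRT17, TP63 and KRT14 were thus below siNC in both libraries, as was KRT19 (84.5% and 66.1%). The others were not: KRT7 stood at 105% and 111%, KRT8 at 156% and 96.6%, and KRT18 at 107% and 86.3%. CDH1 stood at 125% and 78.0%, and EPCAM at 64.6% and 168%. Of 8 luminal urothelial markers 3 had a mean RPKM of at least 1, with sums of 34.1 and 27.3 in siCDCA3 and 30.7 in siNC. The uroplakin genes UPK1A, UPK1B, UPK2 and UPK3A were all under 1 RPKM. The 4 endothelial markers reached no more than 0.0410. Among 7 fibroblast markers only COL1A1 passed a mean RPKM of 1, with 8.33 and 2.26 in siCDCA3 and 6.96 in siNC. LUM, under that mean, had 1.47 in siCDCA3-1, 0.00294 in siCDCA3-2 and 0.123 in siNC. The fibroblast list summed to 10.0 and 2.39 in siCDCA3 and 7.23 in siNC. Among 5 leukocyte markers only CD68 passed that mean, with 1.94 and 0.993 in siCDCA3 and 1.42 in siNC. The leukocyte list summed to 2.67 and 1.38 in siCDCA3 and 1.95 in siNC. In bulk RNA, fewer cells with a transcript and less of it per cell cannot be told apart.

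The start of DKK1 is shown because DKK1 had the largest difference from siNC and because its window held motif letters that were found in no other member's window searched. The window runs from 250 bases before the RefSeq start to 50 bases after it, on GRCh38.p14 at chr10:52314031-52314330, plus strand. For contrast the same window of WNT7A, the most abundant ligand, is given (chr3:13880022-13880321, minus strand). Both are written 5′ to 3′ and come from RefSeq. Capitals mark matches on either strand to CTTTGA (the TCF/LEF core), GGAATG (the TEAD core) and TATAAA (the core promoter box that bears its name). The AP-1 element TGANTCA was also searched.
DKK1: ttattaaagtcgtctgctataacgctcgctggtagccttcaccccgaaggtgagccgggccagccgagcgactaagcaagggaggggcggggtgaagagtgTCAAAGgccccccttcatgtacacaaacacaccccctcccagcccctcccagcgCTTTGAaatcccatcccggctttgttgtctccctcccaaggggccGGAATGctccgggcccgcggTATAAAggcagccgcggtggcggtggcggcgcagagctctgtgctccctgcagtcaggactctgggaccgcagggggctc
WNT7A: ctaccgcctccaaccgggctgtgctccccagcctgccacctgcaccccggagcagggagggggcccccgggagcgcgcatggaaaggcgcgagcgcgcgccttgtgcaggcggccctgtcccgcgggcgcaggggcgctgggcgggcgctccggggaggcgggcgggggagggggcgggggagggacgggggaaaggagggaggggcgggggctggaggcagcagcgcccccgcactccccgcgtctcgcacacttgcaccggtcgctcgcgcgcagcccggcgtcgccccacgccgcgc

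The DKK1 window held the TCF/LEF core at 2 places, 149 and 95 bases upstream of the start, the TEAD core 50 bases upstream and the TATA box 30 bases upstream. None of these matches overlapped another. Among 35116 promoter windows of that length, 12.9% held the TCF/LEF core, 14.03% the TEAD core, 11.5% the TATA box and 7.71% the AP-1 element. The sequence table held 8 windows for 6 members (DKK1, WNT7A, WNT10A, LRP5, CTNNB1 and 3 starts of TCF7L2), and none of the other 7 windows held any of these motifs. DKK3, WNT7B, LRP6 and AXIN2 were not matched. GC content was 63.7% in the DKK1 window and 80.3% in the WNT7A window, against a median of 58.7% over all windows. A match says that the letters are there and nothing about whether a factor binds.

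DKK1 was the member with the largest difference from siNC. Its transcript (NM_012242.2, gene at chr10:52314281-52317657 on GRCh38.p14) had an RPKM of 3.53 in siCDCA3-1, 13.8 in siCDCA3-2 and 0.667 in siNC, from 664, 4014 and 157 counts in that order. Both siCDCA3 libraries lay above siNC, and they also lay far from each other. The RPKM was 5.30-fold the siNC level in siCDCA3-1, with an exact 95% binomial interval for counting error of 4.45 to 6.34. It was 20.8-fold the siNC level in siCDCA3-2 (17.7 to 24.5), and siCDCA3-2 was 3.92-fold above siCDCA3-1 (3.61 to 4.26). On the log2(RPKM + 1) scale, which adds a pseudocount of 1 and so understates changes of low genes, its difference from siNC was 1.44 in siCDCA3-1 and 3.15 in siCDCA3-2. In the GENCODE 29 annotation 212 of its 2206 exon bases are shared with PRKG1-AS1 on the opposite strand. The strand setting of the counting was not stated in the labels or headers, so reads of that RNA cannot be told apart within those bases.

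DKK3, a related secreted glycoprotein whose action on Wnt signalling varies with cell type, had RPKM of 1.68 in siCDCA3-1, 1.09 in siCDCA3-2 and 1.03 in siNC. Only siCDCA3-1 stood apart from siNC beyond counting error, at 1.63-fold (1.42 to 1.87), while siCDCA3-2 was at 1.05-fold (0.918 to 1.21). DKK1 was thus above DKK3 in the siCDCA3 libraries, with ratios of their RPKM of 2.10 in siCDCA3-1 and 12.8 in siCDCA3-2, and below it in siNC, with a ratio of 0.647.

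**Figure D1:**
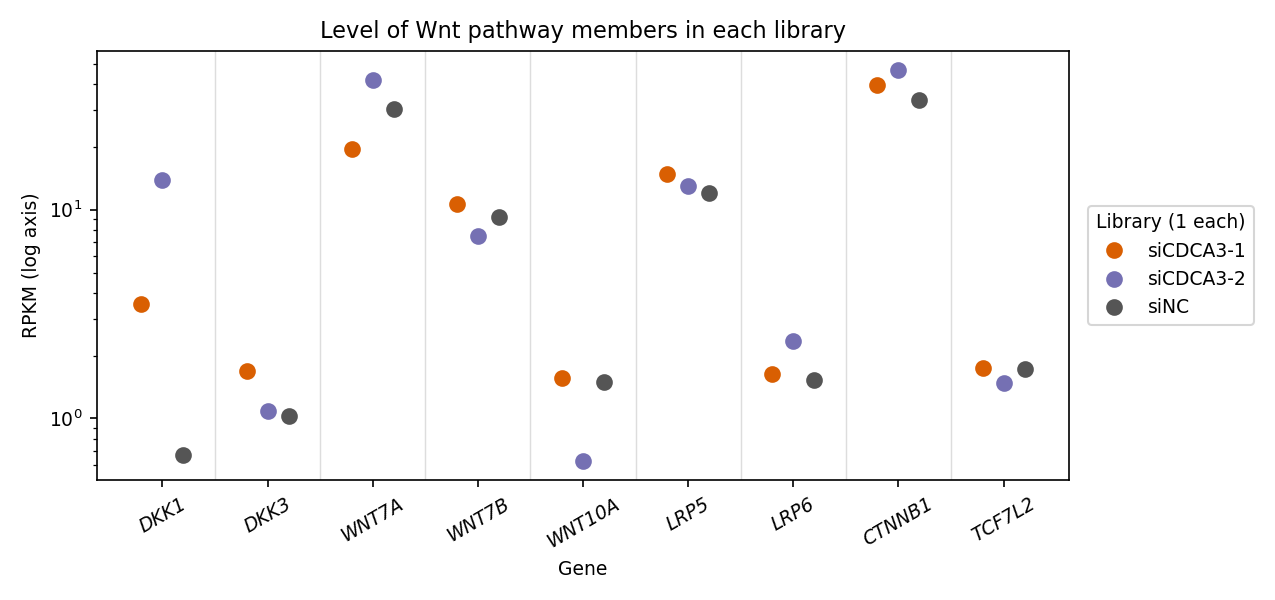
RPKM on a log axis for 9 members, with 1 point for each library and the libraries side by side within a gene; AXIN2, at 0 in siNC, cannot be drawn on this axis. DKK1 lies at 3.53 in siCDCA3-1, 13.8 in siCDCA3-2 and 0.667 in siNC, while the points of LRP5 and of TCF7L2 lie close together.

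For the ligand WNT7A the 2 siCDCA3 libraries lay on opposite sides of siNC. WNT7A (chr3:13816258-13880071), an epithelial Wnt, was the most abundant ligand in every library, with RPKM of 19.4 in siCDCA3-1, 41.6 in siCDCA3-2 and 30.3 in siNC. siCDCA3-1 was therefore the low library and siCDCA3-2 the high one, with siNC between them. Relative to siNC, WNT7A stood at 64.1% in siCDCA3-1 (61.5% to 66.8%) and at 137% in siCDCA3-2 (133% to 141%). Between the siCDCA3 libraries, WNT7A was 2.14-fold higher in siCDCA3-2 (2.06 to 2.22).

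WNT7B, the close paralog of WNT7A, had RPKM of 10.6 in siCDCA3-1, 7.45 in siCDCA3-2 and 9.24 in siNC. Here siCDCA3-1 was the high library, at 115% of the siNC level (110% to 120%), and siCDCA3-2 the low one, at 80.6% (77.4% to 84.0%). The paralogs thus stood in opposite order across the libraries, and the ratio of WNT7A to WNT7B RPKM was 1.83 in siCDCA3-1, 5.58 in siCDCA3-2 and 3.28 in siNC. WNT10A, a ligand known for its part in skin appendages and teeth, had RPKM of 1.56 in siCDCA3-1, 0.629 in siCDCA3-2 and 1.49 in siNC. Its siCDCA3-1 level did not differ from siNC beyond counting error (105%, 91.2% to 120%). Its siCDCA3-2 level was 42.2% of the siNC level (35.9% to 49.4%), from 240 counts in siCDCA3-2 against 462 in siNC.

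Over all 19 Wnt ligand genes the summed RPKM was 43.3 in siCDCA3-1, 58.8 in siCDCA3-2 and 54.5 in siNC. WNT7A, WNT7B and WNT10A made up 73.0% of that sum in siCDCA3-1, 84.4% in siCDCA3-2 and 75.3% in siNC. WNT7A alone made up 44.8%, 70.7% and 55.6% in the same order. Set against the same sum, the RPKM of DKK1 equalled 8.15% of it in siCDCA3-1, 23.5% in siCDCA3-2 and 1.22% in siNC. These shares compare transcript levels per length and say nothing of protein.

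**Figure D2:**
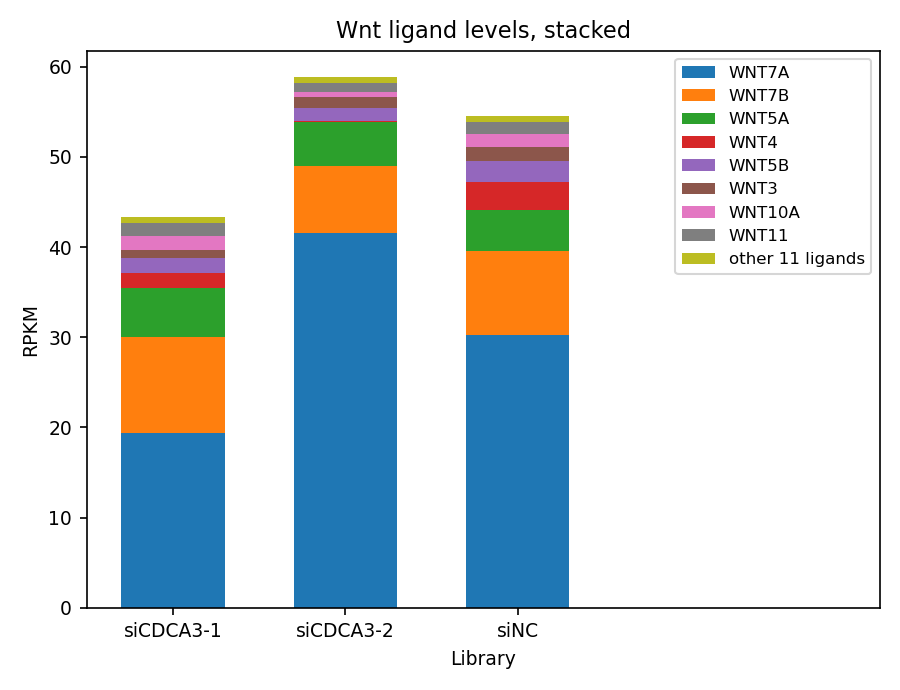
Stacked RPKM of the 19 Wnt ligand genes in each library, with 8 drawn by name and 11 summed. WNT7A is the largest block throughout, at 19.4 in siCDCA3-1, 41.6 in siCDCA3-2 and 30.3 in siNC, and WNT4 is barely visible in siCDCA3-2.

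Both co-receptors stayed within 1.54-fold of siNC. LRP5 (chr11:68298412-68449275) had RPKM of 14.8 in siCDCA3-1, 13.0 in siCDCA3-2 and 12.1 in siNC. That was 1.22-fold the siNC level in siCDCA3-1 (1.19 to 1.26) and 1.07-fold in siCDCA3-2 (1.04 to 1.11). LRP6 (chr12:12116025-12267044) was lower throughout, with RPKM of 1.63 in siCDCA3-1, 2.35 in siCDCA3-2 and 1.53 in siNC. Its siCDCA3-2 level was 1.54-fold that of siNC (1.46 to 1.62), while the interval in siCDCA3-1 included no difference (1.07-fold, 0.998 to 1.14). LRP5 exceeded LRP6 by 9.08-fold in siCDCA3-1, 5.52-fold in siCDCA3-2 and 7.90-fold in siNC.

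CTNNB1, which encodes beta-catenin, was the member with the highest mean level. Its RPKM was 39.4 in siCDCA3-1, 46.5 in siCDCA3-2 and 33.7 in siNC, or 1.17-fold the siNC level in siCDCA3-1 (1.14 to 1.20) and 1.38-fold in siCDCA3-2 (1.35 to 1.41). TCF7L2, the DNA-binding partner of beta-catenin, had RPKM of 1.75 in siCDCA3-1, 1.49 in siCDCA3-2 and 1.72 in siNC. It matched siNC within counting error in siCDCA3-1 (102%, 92.2% to 112%) and lay below it in siCDCA3-2 (86.4%, 78.9% to 94.7%). The 13 TCF7L2 transcripts, which share most of their reads, gave ratios to siNC of 0.987 to 1.03 in siCDCA3-1 and 0.858 to 0.895 in siCDCA3-2. The 4 CTNNB1 transcripts gave 1.17 to 1.20 and 1.38 to 1.39, and the 4 DKK3 transcripts 1.63 to 1.75 and 1.04 to 1.12, in the same order. In GENCODE 29 an antisense gene shares 300 of the 6736 exon bases of TCF7L2.

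AXIN2, the feedback inhibitor and a commonly used readout of beta-catenin activity, was at the edge of detection. It had 2 counts in siCDCA3-1, 13 in siCDCA3-2 and 0 in siNC, or RPKM of 0.00454, 0.0191 and 0. A count of 0 in siNC allows a level of up to 0.00543 RPKM, taking 3 counts as the limit for counting error. No ratio to siNC is given for it. Few genes were at 0 in siCDCA3-2. At the gene level 710 genes were at 0 there, against 2545 in siCDCA3-1 and 2388 in siNC. Of the 2388 genes with no read in siNC, 3.43% had 13 or more counts in siCDCA3-2, and their median count there was 2. What part this had in the AXIN2 counts was not tested. In GENCODE 29 another gene on the same strand, AC004805.1, shares 1316 of the 5226 exon bases of AXIN2, so its reads could not be told apart there.

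**Figure D3:**
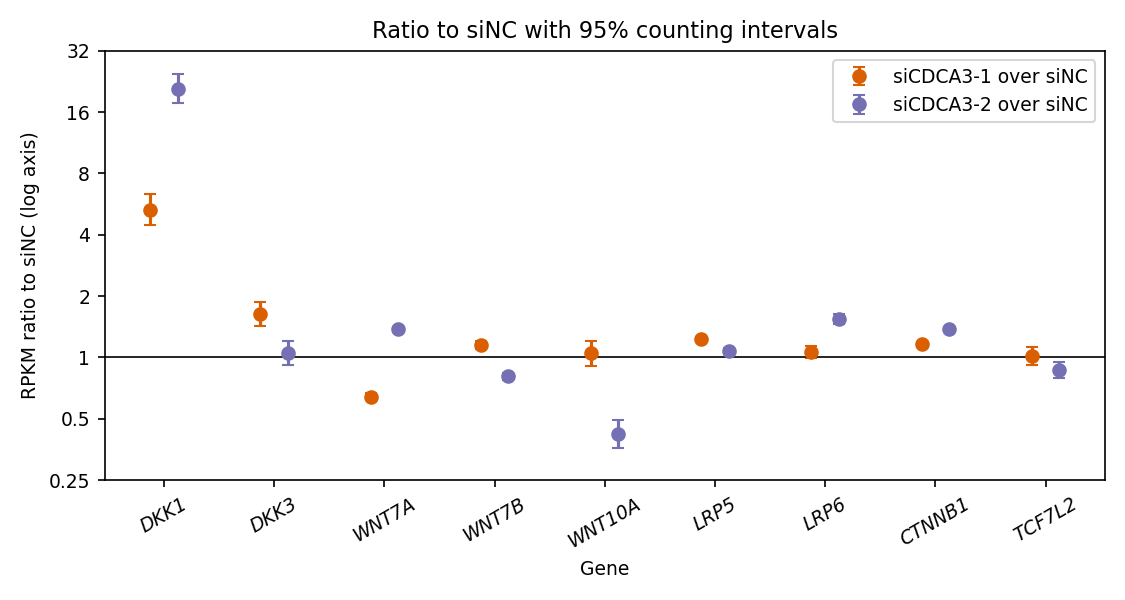
Ratio of RPKM to siNC on a log axis for 9 members, with exact 95% counting intervals as bars and each siCDCA3 library drawn separately; AXIN2, at 0 in siNC, has no ratio. DKK1 lies at 5.30-fold in siCDCA3-1 and 20.8-fold in siCDCA3-2, and no other member reaches 2-fold above siNC; WNT10A in siCDCA3-2 is the lowest point, at 42.2% of siNC.

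Read against the whole table, 1 of the 9 members with a mean RPKM of at least 1, DKK1, was at least 2-fold above siNC in both siCDCA3 libraries on the log2(RPKM + 1) scale. Over the 10153 genes at that mean, 0.0985% were. Since DKK1 was chosen from this comparison, nothing is read from that count, and its siNC level of 0.667 means that it reached the mean only through the siCDCA3 libraries. No member was 2-fold lower in both, where 0.719% of genes were. Between siCDCA3-2 and siCDCA3-1, DKK1 and WNT7A were 2-fold apart on that scale, and 8.63% of all genes were. By the ratio of RPKM, WNT10A was also 2-fold apart, at 0.403-fold in siCDCA3-2 relative to siCDCA3-1 (0.342 to 0.475). Over all genes the median difference from siNC was -0.07 in siCDCA3-1 and 0.05 in siCDCA3-2, and over the 9 members it was 0.18 and 0.10. AXIN2 did not reach the mean and is in none of these counts.

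The genes whose pattern lay nearest to DKK1 were sought over all 10153 genes, by the distance between their pairs of log2(RPKM + 1) differences from siNC. Each pair comes from only 3 libraries and shares siNC, so the ranking is a description. Among the 5 nearest were HMGCS1, HSPA8, IL7R and MSMO1, at distances of 0.910, 0.953, 1.26 and 1.31 log2 units. HMGCS1, which makes the precursor HMG-CoA, had RPKM of 6.91 in siCDCA3-1, 22.5 in siCDCA3-2 and 3.32 in siNC. HSPA8, a constitutive chaperone, had 148 and 316 in those siCDCA3 libraries and 65.9 in siNC, and IL7R, a cytokine receptor chain, had 1.44 and 8.16 in siCDCA3 and 0.777 in siNC. MSMO1, a sterol oxidase, had 12.5 and 21.8 in siCDCA3 and 5.20 in siNC. Each of these 4 had its highest RPKM in siCDCA3-2 and its lowest in siNC, as DKK1 did. The choice by distance favours that order, so nothing is read from it. None of the 4 had as large a difference from siNC as DKK1 on this scale in either library.

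**Figure D4:**
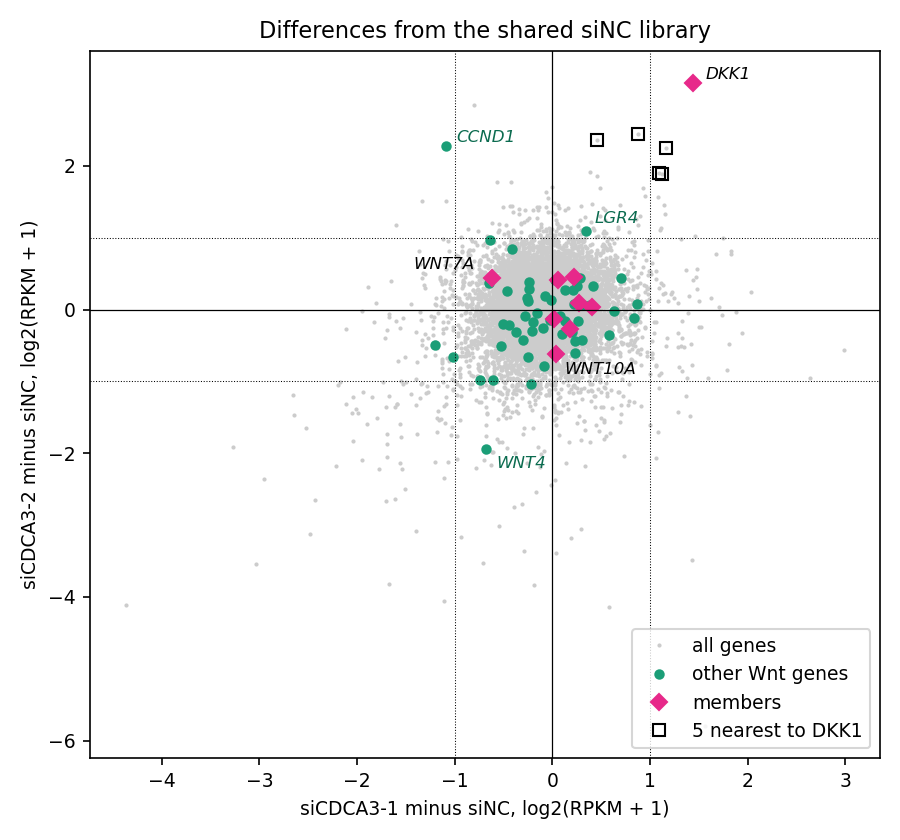
Difference from siNC in log2(RPKM + 1), siCDCA3-1 on the horizontal and siCDCA3-2 on the vertical axis, for 10153 genes (grey), 53 other Wnt genes, 9 members and the 5 genes nearest to DKK1; dotted lines mark a 2-fold difference. Both axes subtract the same siNC library, and DKK1 lies at 1.44 and 3.15, outside the cloud of the other members.

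Another 100 genes of the pathway were listed by role, and 53 of them had a mean RPKM of at least 1. In edgeR (quasi-likelihood F test, p-values adjusted by Benjamini-Hochberg over 10153 genes), 0 of the 53 were called higher and 0 lower, with every adjusted p at 0.9997. Over all genes edgeR called 0.0295%. At an unadjusted p under 0.05 edgeR had 0 higher and 1 lower of the 53, where 0.355% of all genes were higher and 0.965% lower. At an adjusted p under 0.05 DESeq2 and limma called 0 of the 53 in each direction. The edgeR test has 1 residual degree of freedom and assumes that the lone siNC library varies as the siCDCA3 libraries do. The spread behind its p-values comes from the 2 siCDCA3 libraries and from variability pooled over genes, since siNC is alone. On the log2(RPKM + 1) scale no gene of the 53 was 2-fold above siNC in both siCDCA3 libraries, where 0.0985% of all genes were. None was 2-fold below it in both, where 0.719% of all genes were. The median difference of the 53 was -0.08 in siCDCA3-1 and -0.10 in siCDCA3-2, beside -0.07 and 0.05 over all genes.

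The 1 gene at an unadjusted p under 0.05 was KREMEN1, chosen after its values were seen, a receptor that binds DKK1 and LRP6 together. Its RPKM was 2.44 in siCDCA3-1, 3.39 in siCDCA3-2 and 5.97 in siNC, which set siCDCA3-1 at 40.9% of siNC (38.6% to 43.3%) and siCDCA3-2 at 56.8% (54.3% to 59.3%; edgeR log2 fold change -1.03, unadjusted p = 0.0479, adjusted p = 0.9997). CKAP4, a membrane protein described as another DKK1 receptor, had RPKM of 15.8 in siCDCA3-1, 13.2 in siCDCA3-2 and 27.0 in siNC. Relative to siNC this was 58.4% (56.5% to 60.5%) for siCDCA3-1 and 48.9% (47.4% to 50.5%) for siCDCA3-2, with an edgeR adjusted p of 0.9997. KREMEN1 was lowest in siCDCA3-1 and CKAP4 in siCDCA3-2, and these intervals cover counting error alone. The other 12 genes of the secreted inhibitor list, among them DKK2, DKK4 and the SFRP genes, did not reach a mean RPKM of 1.

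Of the 16 other ligands 5 were measured at that mean. WNT5A, a ligand of beta-catenin-independent signalling, was the highest of them, with RPKM of 5.45 in siCDCA3-1, 4.84 in siCDCA3-2 and 4.53 in siNC. WNT4, known for its part in kidney and female reproductive tract development, had 1.58 in siCDCA3-1, 0.0765 in siCDCA3-2 and 3.14 in siNC. Its siCDCA3-2 level, from 48 counts against 1601 in siNC, was 2.43% of that in siNC (1.79% to 3.24%), and its siCDCA3-1 level was 50.4% of it (45.9% to 55.2%). For ligand release, WLS, which carries Wnt proteins to the cell surface, had RPKM of 20.7 in siCDCA3-1, 11.1 in siCDCA3-2 and 17.5 in siNC. PORCN, which attaches their lipid, had 17.2 in siCDCA3-1, 10.2 in siCDCA3-2 and 18.2 in siNC. Both were lowest in siCDCA3-2.

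Among 8 measured receptors, RYK had the highest mean level, with RPKM of 13.2 in siCDCA3-1, 17.6 in siCDCA3-2 and 13.0 in siNC. FZD2 had the largest mean difference of that group, with 10.4 in siCDCA3-1, 4.89 in siCDCA3-2 and 5.38 in siNC. LGR4, a receptor for R-spondins, which strengthen Wnt signalling, had 3.0 in siCDCA3-1, 5.71 in siCDCA3-2 and 2.15 in siNC. Relative to siNC it stood at 139% in siCDCA3-1 (130% to 150%) and at 265% in siCDCA3-2 (250% to 281%). The other gene of the R-spondin arm measured was ZNRF3, with 0.677 in siCDCA3-1, 1.58 in siCDCA3-2 and 0.985 in siNC.

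All 15 dishevelled and destruction complex genes were measured, with median differences of -0.02 in siCDCA3-1 and -0.05 in siCDCA3-2. CSNK1D, a casein kinase, had the highest mean over the 3 libraries though not the highest level in each, with RPKM of 33.5 in siCDCA3-1, 23.2 in siCDCA3-2 and 29.1 in siNC. CSNK1A1, the kinase that primes beta-catenin for breakdown, had 16.4 in siCDCA3-1, 27.7 in siCDCA3-2 and 39.2 in siNC. Of the 8 measured nuclear factors PYGO2, which links beta-catenin to chromatin, had the highest level and the largest absolute difference from siNC as means over the libraries, with 13.7 in siCDCA3-1, 7.39 in siCDCA3-2 and 16.2 in siNC. For PYGO2 that level rests on siNC, since BCL9L and TLE3 were above it in both siCDCA3 libraries. Of 7 planar cell polarity genes CELSR2, a cadherin, led by the same means and again through siNC, with 5.87 in siCDCA3-1, 4.30 in siCDCA3-2 and 9.47 in siNC. None of these passed the edgeR test, each with an adjusted p of 0.9997.

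Of 10 feedback and common target genes 4 reached a mean RPKM of 1, and the siCDCA3 libraries stood on opposite sides of siNC in each. They did so in 22 of the 53 other Wnt genes. That share was not counted over all genes, so nothing is read from the 4. CCND1, which encodes cyclin D1, had RPKM of 2.34 in siCDCA3-1, 33.6 in siCDCA3-2 and 6.12 in siNC. MYC, a growth-promoting transcription factor, had 17.3 in siCDCA3-1, 54.9 in siCDCA3-2 and 27.5 in siNC. CD44, a hyaluronan receptor, had 12.1 in siCDCA3-1, 30.4 in siCDCA3-2 and 16.5 in siNC. EPHB2, an ephrin receptor, ran the other way, with 12.2 in siCDCA3-1, 5.94 in siCDCA3-2 and 7.87 in siNC. CD44, EPHB2, ZNRF3, SP5, TNFRSF19 and PRICKLE1 were chosen after their values were seen. The median differences of the 4 were -0.53 in siCDCA3-1 and 0.91 in siCDCA3-2, beside -0.07 and 0.05 over all genes. Further target genes of the pathway, NKD1, NKD2, SP5, APCDD1, ASCL2 and TNFRSF19, did not reach that mean, as AXIN2 did not. Of these, SP5 had 97 counts in siCDCA3-1, 194 in siCDCA3-2 and 60 in siNC. It stood above siNC in both, at 2.02-fold in siCDCA3-1 (1.45 to 2.84) and 2.63-fold in siCDCA3-2 (1.96 to 3.57). TNFRSF19 stood at 0.567-fold in siCDCA3-1 (0.311 to 0.996) and 3.15-fold in siCDCA3-2 (2.23 to 4.54). NKD1, NKD2, APCDD1 and ASCL2 had no more than 14 counts in any library.

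The counts for each library alone are on the log2(RPKM + 1) scale. In siCDCA3-1 alone 3 of the 53 genes (KREMEN1, CSNK1A1 and CCND1, 5.66%) were 2-fold below siNC, where 1.74% of all genes were. On that scale 0 were 2-fold above, where 0.847% of all genes were. By the ratio of RPKM, PRICKLE1 stood at 2.50-fold the siNC level in siCDCA3-1 (2.28 to 2.75). In siCDCA3-2 alone LGR4 and CCND1 (3.77%) were 2-fold above siNC, where 1.42% of all genes were. WNT4 and PYGO2 (3.77%) were 2-fold below it, where 3.27% of all genes were. By the ratio of RPKM, CKAP4 (48.9% of siNC, 47.4% to 50.5%) and CELSR2 (45.4%, 44.1% to 46.7%) were also 2-fold below siNC in siCDCA3-2. CCND1 was in both libraries' lists with opposite signs.

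**Figure D5:**
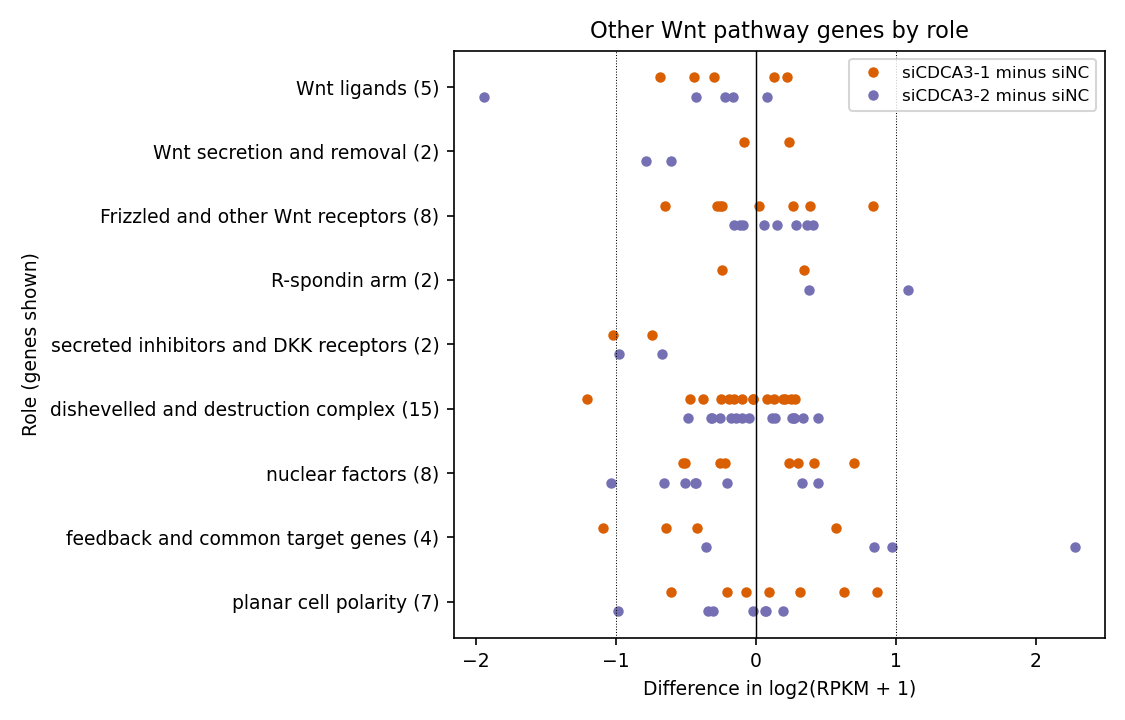
Difference from siNC in log2(RPKM + 1) for 53 other Wnt pathway genes by role, with siCDCA3-1 in the upper and siCDCA3-2 in the lower row of each role and dotted lines at a 2-fold difference. Genes past a dotted line include CCND1 at 2.28 in siCDCA3-2 and WNT4 at -1.94 in siCDCA3-2.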

How the data were processed

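RNA was measured in 3 libraries of 5637 cells, 2 given siRNA against CDCA3 and 1 given a control siRNA. Per the submitters' processing notes, reads were handled with Trimmomatic 0.36, FastQC, HISAT2 and HTSeq, with a human and a mouse build listed without a role. The deposited table holds a count of reads for each of 45006 RefSeq transcripts and the RPKM that the authors made from it, per the file headers. Library totals recovered from these were 104153360 (siCDCA3-1), 160640877 (siCDCA3-2) and 130459616 (siNC). Symbols turned into dates in 103 rows were restored from the accession except in 1. The transcript with the most counts stood for each of 19225 genes, since transcripts of a gene share reads.

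Counts were tested with edgeR 4.0.16 (R 4.3.3, TMM scaling, quasi-likelihood, two-sided, Benjamini-Hochberg, threshold 0.05) at a mean RPKM of at least 1, with DESeq2 1.42.0 and limma 3.58.1 as alternatives. The edgeR code was also run on simulated counts with the same variability set for every gene. That run does not show how the test performs on these libraries. Intervals on ratios are exact 95% binomial intervals (SciPy 1.17.1) and cover counting error only. They treat reads as independent. Since reads are not independent molecules, the intervals may be too narrow even for that error. Nothing in the labels states separate cultures. The members and lists were chosen with earlier results of these data known. All members are named. From the other 100 genes the rule names any called gene, any gene 2-fold from siNC in both siCDCA3 libraries and, per role, the most abundant and the most different gene, and it adds the 5 genes nearest to DKK1, of which 1 is not reported here. Promoter windows are from RefSeq, and exon overlaps from GENCODE 29, both on GRCh38.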

Additional observations from a re-analysis of the deposited data

How the results depend on the processing

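The mean log2 differences of the 9 members at a mean RPKM of at least 1 moved by less than the spread between the siCDCA3 libraries under pseudocounts of 0.1 and 0.5, 3 other scalings and the longest transcript. That spread, the standard deviation of the 2 siCDCA3 values, is widest where the libraries disagree, so it is a loose measure for such genes. Leaving out a siCDCA3 library leaves the value of the other. The mean then changed sign for WNT7A (-0.09, with 0.44 without siCDCA3-1 and -0.62 without siCDCA3-2), WNT7B (-0.05, -0.28 and 0.18), WNT10A (-0.29, -0.61 and 0.04) and TCF7L2 (-0.06, -0.13 and 0.01), each given in the same order. For DKK1 the mean was 2.30 with a spread of 1.21, and it was 3.15 without siCDCA3-1 and 1.44 without siCDCA3-2. The DKK1 mean depended on the pseudocount, at 3.21 with 0.1 and 2.70 with 0.5. For AXIN2, at 0 in siNC, the mean difference was 0.02, and it was 0.16 with a pseudocount of 0.1 and 0.034 with 0.5. Genes 2-fold higher in both libraries numbered 10, and 32 with a pseudocount of 0.1. Against 10 higher and 73 lower genes when both libraries had to pass, 144 and 332 passed without siCDCA3-1 and 86 and 177 without siCDCA3-2. Against 0 and 0 among the other Wnt genes, 2 and 2 passed without siCDCA3-1 and 0 and 3 without siCDCA3-2. Fewer libraries then had to pass. edgeR called 0 higher and 3 lower genes, and 4 and 18 without a filter, 0 lower at a mean RPKM of at least 5 and 0 lower in limma, while DESeq2 called 2 higher and 8 lower. The cause was not tested. At an unadjusted p under 0.05 edgeR had 36 higher and 98 lower genes. The mean of the 2 library medians over the other Wnt genes was -0.089, and -0.075 with TMM scaling, -0.072 with median-of-ratios scaling, -0.064 with quantile normalization, -0.114 and -0.101 with pseudocounts of 0.1 and 0.5, -0.129 at a mean RPKM of at least 5 and 0.0025 without a filter. The edgeR test was not run with a siCDCA3 library left out, which leaves no residual degree of freedom. No paired analysis was possible because siNC has a single library. AXIN2 had the fewest counts of the members, with 13 at its highest.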
